A study of Mus musculus with 23 samples.

Results

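Non-classical MHC class I genes were followed by 7 symbols, H2-Q4, H2-Q6, H2-Q7, H2-T22, H2-T23, H2-M3 and Cd1d1, out of 48397 in the count table. They were taken by name, with earlier results of these data known. RNA was sequenced from cells sorted out of Met1-iRFP breast tumours grown in FVB mice. The Met-1 line came from a mammary tumour of an MMTV-PyMT mouse, and its cells here carry iRFP, a fluorescent protein that emits in the near infrared. The labels call iRFP-positive cells cancer cells and iRFP-negative cells the tumour microenvironment (TME). The 4 groups were 7 libraries of cancer cells from exercised mice, 8 of cancer cells from sedentary mice, 4 of TME cells from exercised mice and 4 of TME cells from sedentary mice. All groups carried the same tumour line and host strain, and no other allele or agent is labelled. The labels give no age, exercise schedule or number of animals.

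Class I molecules are heavy chains that pair with beta-2-microglobulin at the cell surface. The classical ones show many peptides of the cell to CD8 T cells, whereas the non-classical ones vary little between individuals and show restricted ligands to T cells and natural killer (NK) cells. In tumours they are known as targets and brakes of both. Many of those in the MHC region are induced by interferon and by the class I activator NLRC5.

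All 7 genes are protein-coding in the GENCODE M21 annotation of GRCm38. H2-Q4 (chromosome 17, 35379617 to 35385290, plus strand) encodes Qb-1, a class I protein that can be secreted. H2-Q6 (35424850 to 35430055) and H2-Q7 (35439155 to 35443773), on the same strand, encode forms of Qa-2, a class I antigen with a lipid anchor. H2-T23 (36029773 to 36032855, minus strand) encodes Qa-1, which shows a leader peptide of classical class I to the CD94/NKG2A receptor of NK cells. H2-T22 (36037128 to 36042747, minus strand) encodes a ligand of some gamma-delta T cells. H2-M3 (37270220 to 37274484, plus strand) presents peptides that start with formyl-methionine, from bacteria and from mitochondria. Cd1d1 lies outside the MHC, on chromosome 3 (86995834 to 86999441, minus strand), and presents lipids to NKT cells.

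Upstream sequences are shown for 5 of the 6 H2 genes to set the similar copies beside the more distant genes. They come from RefSeq on GRCm38.p6 and are written 5′ to 3′ on the strand of the gene. Capitals mark TTTCACTTC, an interferon-stimulated element of class I promoters, the core of the interferon response element (TTTC, any 2 bases, TTTC) in H2-T22, TGATGAC, part of the X box that the NLRC5 complex uses, and ATTGG or its reverse CCAAT, the Y box.
H2-Q4, chr17:35379459-35379571, plus strand: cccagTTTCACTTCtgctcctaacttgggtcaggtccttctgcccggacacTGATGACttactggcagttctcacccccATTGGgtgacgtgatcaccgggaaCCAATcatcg
H2-Q6, chr17:35424693-35424804, plus strand: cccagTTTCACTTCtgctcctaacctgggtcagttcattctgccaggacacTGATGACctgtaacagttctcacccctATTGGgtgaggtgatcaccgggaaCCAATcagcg
H2-Q7, chr17:35439037-35439148, plus strand: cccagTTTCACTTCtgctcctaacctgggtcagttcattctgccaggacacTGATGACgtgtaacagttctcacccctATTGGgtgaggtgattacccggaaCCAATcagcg
H2-T22, chr17:36042796-36042948, minus strand: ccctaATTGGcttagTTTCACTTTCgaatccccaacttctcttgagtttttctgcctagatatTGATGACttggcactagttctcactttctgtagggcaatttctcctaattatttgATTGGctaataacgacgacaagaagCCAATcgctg
H2-M3, chr17:37270100-37270219, plus strand: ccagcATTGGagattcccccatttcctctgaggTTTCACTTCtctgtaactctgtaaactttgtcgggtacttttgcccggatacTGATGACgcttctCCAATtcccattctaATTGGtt

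The 250 bases before each annotated start were searched on both strands. TTTCACTTC began 153 bases before the start of H2-Q4, 152 before that of H2-Q6, 113 before that of H2-Q7 and 101 before that of H2-M3. It occurred in 0.402% of 32851 RefSeq windows. The interferon response element core was found in H2-T22 at 191 bases and in H2-T23 at 124 bases, and in 2.977% of all windows. TGATGAC followed at 107, 106, 67, 143 and 49 bases in H2-Q4, H2-Q6, H2-Q7, H2-T22 and H2-M3, against 2.694% of all windows. ATTGG in either direction was in all 6 H2 windows and in 33.85% of all windows. H2-Q6 and H2-Q7 also held the NF-kB element of class I promoters, which is in 0.085% of windows. The window of H2-T23 overlaps an annotated transcript and is not printed, and neither TTTCACTTC nor TGATGAC was found in it. The letters were chosen with these sequences in view, the H2-Q windows are similar copies, and a match is not a site shown to be used.

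Total counts were 20073700 to 25526059 in exercised and 15924340 to 25563245 in sedentary cancer libraries, and 22682216 to 37388479 in exercised and 16307545 to 35958441 in sedentary TME libraries. Mitochondrial genes took 1.86% to 3.895% of the counts in cancer libraries. Among TME libraries they took 42.2% in sedentary library 4, 14.5% in sedentary library 6 and 2.61% to 8.63% in the 6 others. Levels are CPM, the counts scaled to a common library size with edgeR's TMM factors. Summed pan-leukocyte markers were 20.9 to 90.7 CPM in cancer libraries and 286 to 1701 CPM in TME libraries. In exercised TME libraries 8 and 9 they were 1634 and 1701 CPM, and in the other 6 TME libraries 286 to 553 CPM. The epithelial markers, whose sums are carried by Wfdc2 and Krt18, were at sums of 275 to 538 CPM in cancer libraries and 228 to 522 CPM in TME libraries. Of the genes that define epithelium, Epcam averaged 1.25 to 1.35 CPM and Krt8 0.103 to 0.354 CPM over the 4 groups. Cdh1, the E-cadherin gene, averaged 0.456 and 0.561 CPM in exercised and sedentary cancer cells and 4.27 and 2.90 CPM in exercised and sedentary TME cells, and was called lower in cancer cells in both. The label of the cancer sort therefore rests on iRFP and not on these genes. Wfdc2 averaged 265 and 331 CPM in exercised and sedentary cancer cells, and 263 and 361 CPM in exercised and sedentary TME cells. How far each sort held cells of the other was not tested. Ptprc, the pan-leukocyte CD45 gene, was lower in cancer than in TME cells. In such bulk samples, fewer cells of a type and less RNA per cell cannot be told apart.

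H2-Q4 had the highest level of the 7 genes in each group, both as TMM-scaled CPM and per kilobase. Per kb of annotated exon its level was 38.8 ± 12.8 CPM in exercised and 33.4 ± 16.7 CPM in sedentary cancer cells (SD, n = 7 and 8). In TME cells it was 70.6 ± 9.76 and 55.6 ± 13.5 CPM per kb (SD, n = 4 each) in exercised and sedentary mice. H2-T22 was lowest per kb in all groups, at group means of 2.77 to 3.53 CPM per kb. In cancer cells H2-M3 came next to H2-Q4, at 11.9 ± 0.762 CPM per kb in exercised and 12.5 ± 4.25 in sedentary mice. In TME cells that place was taken by H2-Q6, at 33.5 ± 6.57 CPM per kb in exercised and 16.2 ± 4.96 in sedentary mice.

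The middle of this order was not firm. Cd1d1 and H2-T23 were close in cancer cells, where Cd1d1 was above H2-T23 per kb in 5 of 7 exercised and 5 of 8 sedentary libraries. H2-Q6 exceeded H2-M3 per kb in 4 of 4 exercised TME libraries and in 2 of 4 sedentary ones. The length used also mattered for H2-Q7, whose annotated exons are 4265 bases in all and whose coding transcript is 1497. With coding transcripts as the length, a choice made after seeing the data, H2-Q7 reached 34.3 CPM per kb and H2-Q6 33.5 in exercised TME cells, and H2-Q7 came next to H2-Q4 in exercised cancer cells, at 13.9. H2-Q4 stayed first and H2-T22 last in all 4 groups with that length. All 7 genes stood far below the classical heavy chains, as H2-D1 had 750 and 710 CPM per kb of exon in exercised and sedentary cancer cells and 1389 and 1011 in exercised and sedentary TME cells.

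**Figure D1:**
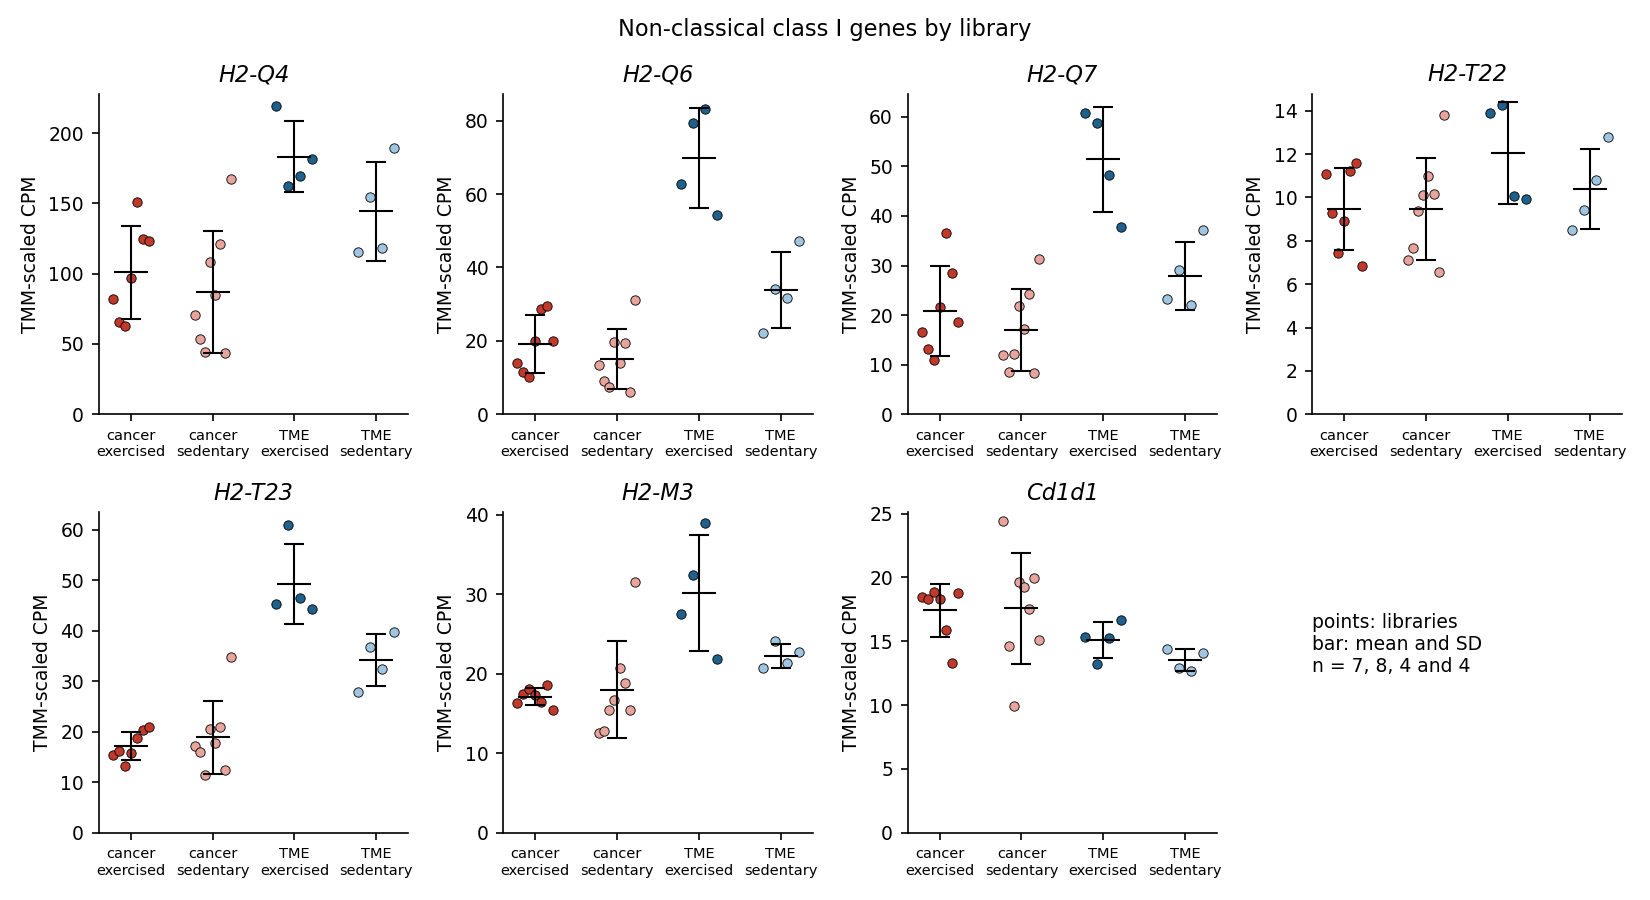
TMM-scaled CPM of each gene (vertical axis, from 0) in every library of the 4 groups, with points for libraries and bars for the mean and SD. Exercised TME libraries lie above all sedentary ones for H2-Q6, H2-Q7 and H2-T23, and Cd1d1 is the gene with higher means in exercised and sedentary cancer cells (17.4 and 17.6 CPM) than in exercised and sedentary TME cells (15.1 and 13.5 CPM).

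The first comparison asked whether exercise altered these genes in TME cells. All 7 had fold changes above 0, as had 51.3% of all genes tested, and 0 of 7 passed the test by edgeR, as did 0 of 16273 genes tested (0%; 1373 at an unadjusted p under 0.05). The Qa-2 genes and Qa-1 stood out by their levels: in H2-Q6, H2-Q7 and H2-T23 every exercised library was above every sedentary one. Such a separation upward was found in 1.95% of the genes tested, and one downward in 1.79%. The median log2 fold change was 0.42 over the 7 genes and 0.00888 over all genes tested.

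H2-Q6 had 62.6, 79.3, 83.1 and 54.2 CPM in exercised TME libraries 7, 8, 9 and 10, against 22.3, 34.0, 31.7 and 47.3 CPM in sedentary TME libraries 4, 6, 9 and 10. The lowest exercised library lay above the highest sedentary one. The log2 fold change was 1.02 ± 0.22 (SE), with an adjusted p of 0.586 in edgeR's quasi-likelihood test and 0.0166 in DESeq2. Its Qa-2 partner H2-Q7 had 60.8, 58.8, 48.2 and 37.9 CPM in the exercised libraries, against 23.3, 29.1, 22.01 and 37.1 CPM in the sedentary ones. Here exercised library 10 and sedentary library 10 nearly met. H2-Q7's log2 fold change was 0.86 ± 0.20, with an adjusted p of 0.586 by edgeR and 0.0478 by DESeq2. DESeq2 called 2 of the 7 genes, where it called 0.220% of 18167 genes.

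H2-T23, the Qa-1 gene, had 45.3, 61.1, 46.6 and 44.4 CPM in exercised TME libraries 7, 8, 9 and 10, against 27.9, 36.8, 32.4 and 39.8 CPM in the sedentary ones. The groups did not overlap, and exercised library 8 was the highest by far. Its log2 fold change was 0.51 ± 0.15 (edgeR adjusted p = 0.586). H2-M3, which presents formylated peptides, had 27.5, 32.4, 39.0 and 21.9 CPM in exercised libraries, against 20.8, 24.1, 21.3 and 22.7 CPM in sedentary ones. Exercised library 10 lay within the sedentary range, and the log2 fold change was 0.42 ± 0.17 (edgeR adjusted p = 0.586).

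The remaining 3 genes overlapped between the TME groups. H2-Q4 had 219, 162, 170 and 182 CPM in exercised libraries, against 115, 155, 118 and 190 CPM in sedentary ones. Sedentary library 10 was above 3 of the 4 exercised libraries, and the log2 fold change was 0.33 ± 0.17 (edgeR adjusted p = 0.593). The gamma-delta ligand H2-T22 ranged over 9.93 to 14.3 CPM in exercised and 8.51 to 12.8 CPM in sedentary TME libraries, at a log2 fold change of 0.20 ± 0.21. Cd1d1 ranged over 13.2 to 16.7 CPM in exercised and 12.7 to 14.4 CPM in sedentary ones, at 0.15 ± 0.15.

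Leukocyte markers were high in 2 of the 4 exercised TME libraries. The 8 pan-leukocyte markers summed to 286, 1634, 1701 and 438 CPM in exercised libraries 7, 8, 9 and 10, against 522, 478, 553 and 406 CPM in sedentary libraries 4, 6, 9 and 10. All 8 had fold changes above 0, with a median of 1.07 log2, and 0 were called. The 8 macrophage markers summed to 563 to 3174 CPM in exercised and 672 to 854 CPM in sedentary libraries, and no marker of either list was at 0 in a TME library. B cell markers were near 0, at most 1.63 CPM summed in exercised and 0.803 in sedentary TME libraries. Endothelial markers went the other way, with 6 of 6 below 0 and a median of -1.33 log2, and sedentary library 4 held 341 CPM of them, against 70.3 to 89.1 in the other sedentary libraries. Sedentary libraries 4 and 6 also had the highest mitochondrial shares, 42.2% and 14.5%, against 2.61% to 8.63% in exercised libraries.

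Exercised library 7 had a lower leukocyte sum than any sedentary library and exercised library 10 one within the sedentary range, and in both the Qa-2 genes and Qa-1 were above each sedentary library. Without exercised libraries 8 and 9, a setting added after seeing the data, the log2 fold changes were 0.79 ± 0.23 for H2-Q6, 0.83 ± 0.23 for H2-Q7 and 0.39 ± 0.17 for H2-T23, and 0 of 7 genes were called. H2-M3 was at 0.16 ± 0.18 in that setting, against 0.42 with all libraries, while H2-Q4 was at 0.48 ± 0.19 and Cd1d1 at 0.25 ± 0.20. Without sedentary libraries 4 and 6 the log2 fold changes were 0.83 ± 0.23 for H2-Q6, 0.80 ± 0.26 for H2-Q7, 0.45 ± 0.18 for H2-T23 and 0.46 ± 0.23 for H2-M3, 0.25 ± 0.21 for H2-Q4, 0.03 ± 0.24 for H2-T22 and 0.17 ± 0.19 for Cd1d1, with 0 of 7 called. The part of the leukocyte markers, the endothelial markers and the mitochondrial share in these values was not tested.

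**Figure D2:**
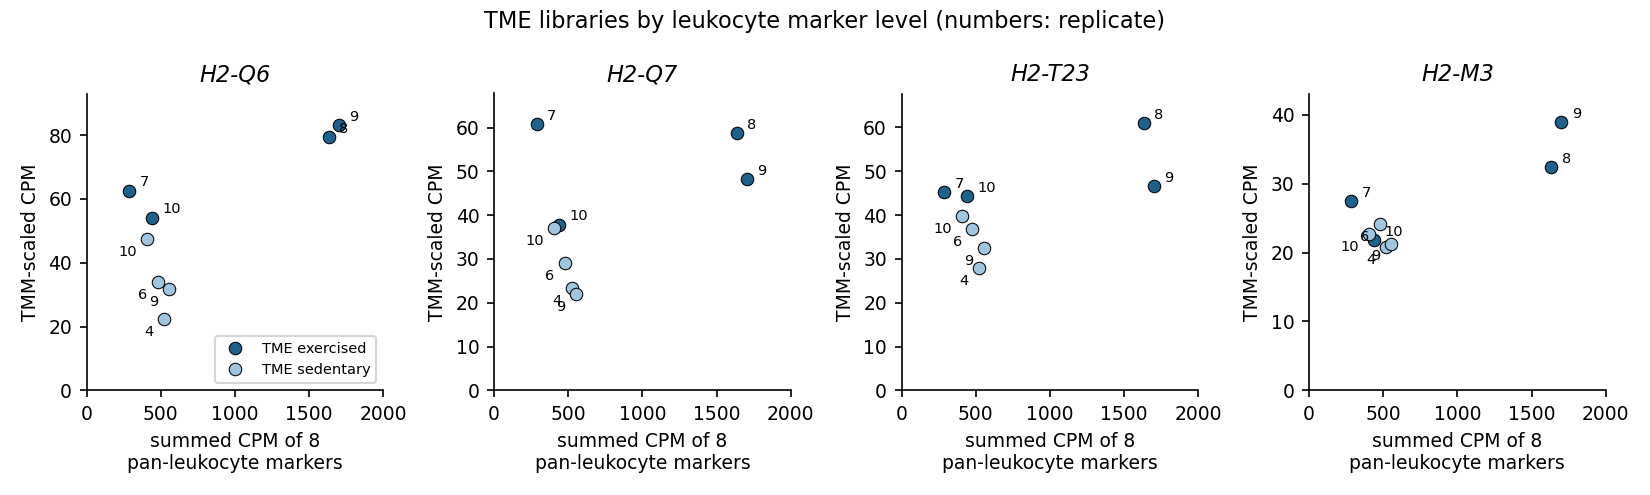
CPM of 4 genes (vertical axis) against the summed CPM of 8 pan-leukocyte markers (horizontal axis) in the 4 exercised and 4 sedentary TME libraries, numbered by replicate. Exercised libraries 8 and 9 stand apart at 1634 and 1701 CPM of leukocyte markers. Exercised libraries 7 and 10, at 286 and 438 CPM, lie above the sedentary ones for H2-Q6, H2-Q7 and H2-T23 but not both for H2-M3. The part of the leukocyte markers was not tested.

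In cancer cells the exercised and sedentary ranges of all 7 genes overlapped. The 7 genes had log2 fold changes from -0.17 to 0.31 and 0 of 7 were called by edgeR, as were 0 of 15096 genes tested (0%; 1901 at an unadjusted p under 0.05). DESeq2 called 0.935% of genes and limma voom 1.30%, with none of the 7 among them. Groups lay apart in 0.298% of genes upward and 0.0530% downward. The H2-Q genes were above 0. H2-Q6 was 10.08, 19.9 and 29.6 CPM (lowest, median and highest) in exercised and 5.94, 13.7 and 31.0 CPM in sedentary cancer libraries, a log2 fold change of 0.31 ± 0.34 (edgeR adjusted p = 0.759). H2-Q7 was 10.9, 18.7 and 36.6 CPM in exercised and 8.26, 14.7 and 31.3 CPM in sedentary ones, at 0.26 ± 0.33. H2-Q4 was 62.6, 96.7 and 151 CPM in exercised and 43.8, 77.7 and 168 CPM in sedentary ones, at 0.18 ± 0.31. The exercised range lay inside the sedentary one for H2-Q4 and H2-Q6, while for H2-Q7 exercised library 7 was above it.

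H2-T23 was 13.3, 16.2 and 20.9 CPM (lowest, median and highest) in exercised and 11.4, 17.4 and 34.9 CPM in sedentary cancer libraries, with a log2 fold change of -0.17 ± 0.19 (edgeR adjusted p = 0.759). H2-M3 was 15.4, 17.3 and 18.6 CPM in exercised and 12.6, 16.1 and 31.5 CPM in sedentary ones, at -0.11 ± 0.15. In both genes the highest value belonged to sedentary library 10, and without it the values were 0.02 and 0.05. That library also held the highest sedentary level of H2-Q4, H2-Q6, H2-Q7 and H2-T22. H2-T22 was 6.82, 9.29 and 11.6 CPM in exercised and 6.57, 9.76 and 13.8 CPM in sedentary cancer libraries. Cd1d1 was 13.3, 18.3 and 18.9 CPM in exercised and 9.96, 18.4 and 24.4 CPM in sedentary ones. Their log2 fold changes were -0.04 ± 0.16 and -0.05 ± 0.14. The 8 pan-leukocyte markers had a median of 0.48 log2 with exercise in cancer cells, and their part was not tested.

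The exercise effect was then compared between the sorts. In all 7 genes the log2 fold change was lower in cancer than in TME cells, and 48.3% of all genes tested had a difference above 0. In edgeR's test 0 of 7 differences were called, as were 0 of 17503 genes (0%; 1316 at an unadjusted p under 0.05). H2-T23 differed by -0.66 ± 0.29 (edgeR adjusted p = 0.620), H2-M3 by -0.52 ± 0.25 (edgeR adjusted p = 0.662) and H2-Q6 by -0.69 ± 0.52 (edgeR adjusted p = 0.796). The other 4 genes lay between -0.58 and -0.13. These differences use the same libraries as the comparisons within each sort. Without sedentary cancer library 10 the difference for H2-Q4 was 0.08 in place of -0.13.

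Cancer and TME cells were then set against each other. In exercised mice edgeR, without pairing by replicate number, called 5 of 7 genes lower in cancer cells and 0 higher. This compares with 36.9% of 17503 genes called in either direction, 19.5% higher and 17.3% lower. H2-T23 had the smallest p of the 7: it was 13.3, 16.2 and 20.9 CPM (lowest, median and highest of 7) in exercised cancer libraries, against 45.3, 61.1, 46.6 and 44.4 CPM in exercised TME libraries. Its log2 difference was -1.52 ± 0.20 (edgeR adjusted p = 1.28e-06). H2-Q6 averaged 19.1 ± 7.79 CPM in cancer cells and 69.8 ± 13.7 CPM in TME cells (SD, n = 7 and 4), a log2 difference of -1.87 ± 0.36 (edgeR adjusted p = 0.00032).

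H2-Q7 averaged 20.9 ± 9.04 CPM in exercised cancer cells and 51.4 ± 10.59 CPM in exercised TME cells, at -1.30 ± 0.34 log2 (edgeR adjusted p = 0.0040). H2-M3 averaged 17.1 ± 1.10 CPM in cancer cells and 30.2 ± 7.28 CPM in TME cells, at -0.82 ± 0.18 (edgeR adjusted p = 0.000472). H2-Q4 averaged 101 ± 33.3 CPM in cancer cells and 183 ± 25.3 CPM in TME cells, at -0.86 ± 0.32 (edgeR adjusted p = 0.0390). In these 5 genes every exercised cancer library was below every exercised TME library, as in 10.96% of the genes tested, and 13.8% lay apart upward. The call of H2-Q4 was lost when any of exercised cancer libraries 1, 2, 4 or 5 or exercised TME libraries 7 or 10 was left out, with adjusted p of 0.0510 to 0.0912 over these 6 fits. It was also lost with no filter on low counts (edgeR adjusted p = 0.0648). With the replicate number as a block its log2 difference was -0.49 ± 0.19 (edgeR adjusted p = 0.0808), and the block left 3517 genes called in place of 6456. Without exercised TME libraries 8 and 9, 4 of the 7 genes were called, as were 5345 of all genes. H2-Q4 then had an edgeR adjusted p of 0.0748.

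In sedentary mice 2 of 7 genes were lower in cancer cells, where 40.8% of genes were called in either direction, 21.05% higher and 19.8% lower. No gene of the 7 had groups without overlap, which 20.9% of genes had in either direction. H2-T23 was 11.4, 17.4 and 34.9 CPM (lowest, median and highest of 8) in sedentary cancer libraries, against 27.9, 36.8, 32.4 and 39.8 CPM in sedentary TME libraries. Only cancer library 10 reached the TME range, and the log2 difference was -0.86 ± 0.20 (edgeR adjusted p = 0.000940). H2-Q6 averaged 15.005 ± 8.23 CPM in cancer cells and 33.8 ± 10.33 CPM in TME cells (SD, n = 8 and 4), at -1.18 ± 0.35 (edgeR adjusted p = 0.0112). H2-Q4 and H2-Q7 had log2 differences of -0.73 ± 0.31 and -0.72 ± 0.33 with edgeR adjusted p of 0.0662 and 0.0918.

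Cancer library 10 weighed on the sedentary comparison. Without it 6 of 7 genes were called, as were 6944 of all genes, against 7142 with all libraries. H2-Q4 at -0.94 ± 0.28, H2-Q7 at -0.91 ± 0.31 and H2-M3 at -0.47 ± 0.14 were then called lower in cancer cells, and Cd1d1 at 0.41 ± 0.16 higher. Leaving out cancer library 3 or 4 also called Cd1d1, and leaving out library 7 called H2-Q4. limma voom called H2-Q4 and H2-Q7 beside the 2 genes of edgeR, and called 39.3% of all genes.

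Cd1d1 went the other way from the H2 genes between the sorts. It averaged 17.4 ± 2.09 CPM in cancer cells and 15.1 ± 1.43 CPM in TME cells of exercised mice (SD, n = 7 and 4), at 0.20 ± 0.16 log2 (edgeR adjusted p = 0.339). In sedentary mice it averaged 17.6 ± 4.35 CPM in cancer cells and 13.5 ± 0.863 CPM in TME cells, at 0.38 ± 0.16 (edgeR adjusted p = 0.0560). Neither difference was called. H2-T22 was not called either, with log2 differences of -0.35 ± 0.19 in exercised and -0.14 ± 0.19 in sedentary mice.

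The comparisons in exercised and sedentary mice differ by the difference of effects given above, so a gene called in one alone is not shown to differ.

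**Figure D3:**
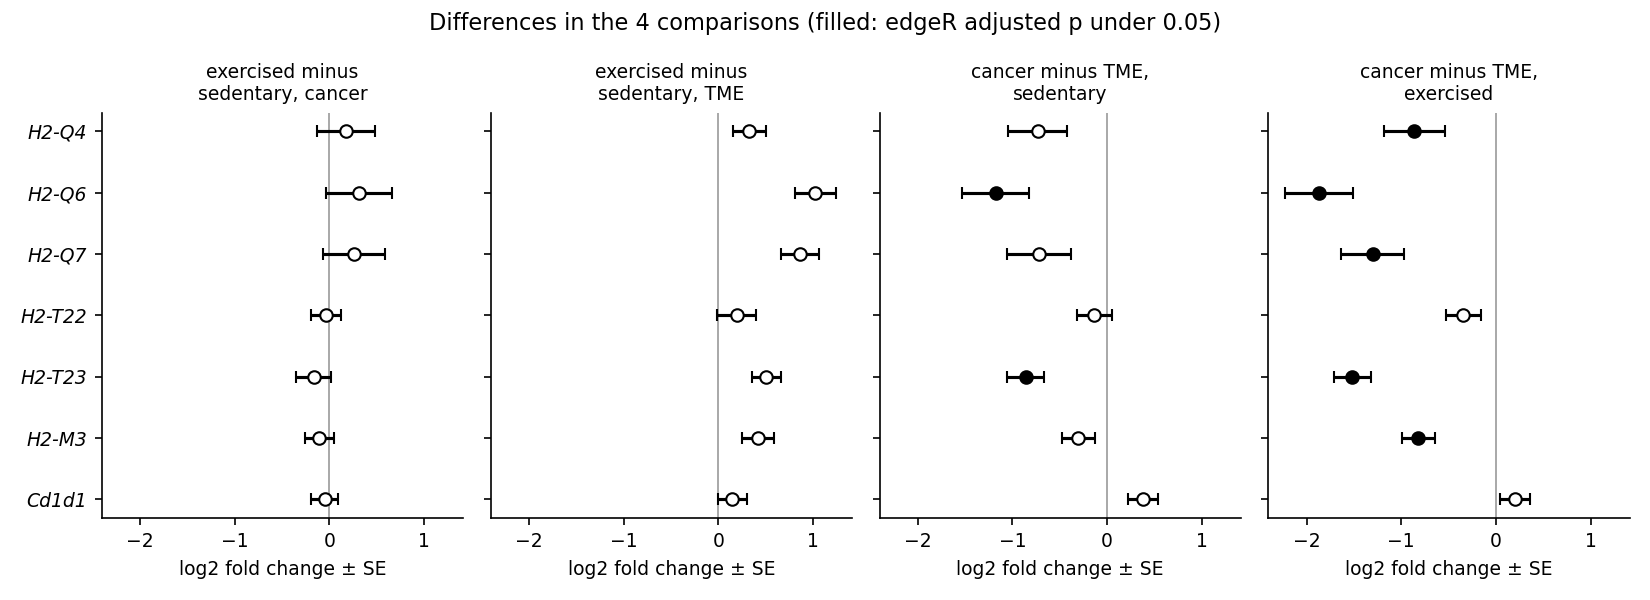
Log2 fold changes with standard errors (horizontal axis) of the 7 genes in 4 comparisons, with filled points for an edgeR adjusted p under 0.05. No point is filled for exercise, 2 are filled for cancer against TME cells in sedentary mice and 5 in exercised mice, all below 0. The fits shown did not pair libraries by replicate number.

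Several of these genes are similar copies, so their counts were also examined as groups. Of the distinct 75-base stretches of annotated transcripts, 17.9% of those of H2-Q6 also occur in another gene, including 9.80% shared with H2-Q7. The share was 17.0% for H2-Q7 (8.88% with H2-Q10), 18.5% for H2-T22 (15.7% with H2-T10), 14.2% for Cd1d1 (all with Cd1d2), 7.02% for H2-Q4 and 5.91% for H2-T23, and H2-M3 had none. The read length is not given in the sources used here, and the mm10 genome is of C57BL/6J, whose MHC haplotype differs from that of FVB, so single values of the H2-Q and H2-T genes are uncertain. Gm11131 overlaps H2-Q4 on the other strand, at means of 1.38 to 1.83 CPM per group. A930015D03Rik overlaps H2-T22 and H2-T23 on the other strand, at no more than 0.313 CPM. The strand setting of the counting is not given in the sources used here.

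Summed over H2-Q4, H2-Q5, H2-Q6 and H2-Q7, the log2 difference between cancer and TME cells was -1.12 ± 0.32 in exercised mice (edgeR adjusted p = 0.00933) and -0.80 ± 0.32 in sedentary mice (edgeR adjusted p = 0.0496). The exercise effect on this sum was 0.54 ± 0.17 in TME cells (edgeR adjusted p = 0.586) and 0.21 ± 0.31 in cancer cells (edgeR adjusted p = 0.833). H2-T10 and H2-T22 together, of which H2-T22 gave 12.1% to 21.5% of the counts in a library, passed in no comparison.

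The make-up of the H2-Q counts follows from the levels of its genes given above, and no share was tested. H2-Q4 gave 63.5%, 53.8%, 56.2% and 66.1% of the H2-Q counts in exercised TME libraries 7, 8, 9 and 10, against 70.8%, 70.7%, 68.6% and 68.8% in sedentary TME libraries 4, 6, 9 and 10. The groups did not overlap, and the lowest shares were those of libraries 8 and 9. This restates the log2 fold changes of 1.02 and 0.86 for H2-Q6 and H2-Q7 beside 0.33 for H2-Q4, and is no separate result. In cancer cells the shares were alike, at 71.9% ± 2.91 in exercised and 72.7% ± 1.80 in sedentary libraries (SD, n = 7 and 8). H2-Q6 gave 57.6% ± 5.20 of the H2-Q6 and H2-Q7 counts in exercised TME cells and 54.4% ± 4.27 in sedentary ones, and 47.9% ± 2.76 and 46.3% ± 4.89 in exercised and sedentary cancer cells. As shared stretches can shift reads between copies, these shares are of counts as deposited.

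**Figure D4:**
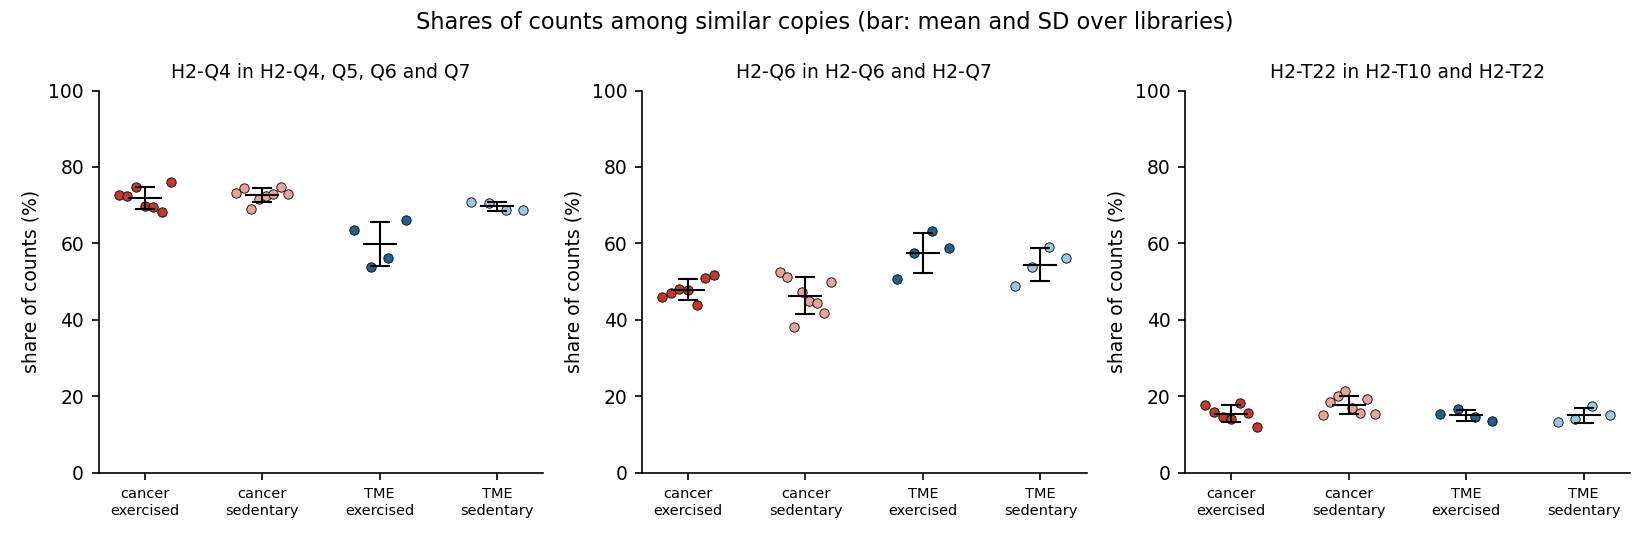
Share of counts (vertical axis, percent) of H2-Q4 among 4 H2-Q copies, of H2-Q6 among H2-Q6 and H2-Q7, and of H2-T22 among H2-T10 and H2-T22, in each library, with the mean and SD per group. H2-Q4 takes 53.8% to 66.1% in exercised and 68.6% to 70.8% in sedentary TME libraries.

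Across the 15 cancer libraries, after the mean of each treatment was subtracted, the levels of the H2-Q genes and H2-T23 went up and down together. Pearson's r over the 21 pairs of the 7 genes ranged from -0.38 to 0.98, with a median of 0.63. Without sedentary cancer library 10 the median was 0.44. H2-Q4 and H2-Q6 had an r of 0.98 (Spearman's rho 0.97; 0.96 without the 2 libraries farthest out in H2-Q4), and H2-Q4 and H2-T23 one of 0.92 (rho 0.90; 0.89 without 2). H2-Q4 also followed the classical heavy chains H2-D1 and H2-K1 (r = 0.98 and 0.97) and the peptide transporter Tap1 (0.96), which were its 3 nearest genes. For the Qa-2 genes H2-D1 came first as well, at 0.96 with H2-Q6 and 0.93 with H2-Q7. The next were H2-K1 and Rrp9 for H2-Q6, and Tap1 and H2-K1 for H2-Q7. Of the distinct 75-base stretches, H2-D1 shares 2.83% of those of H2-Q6, 1.47% of H2-Q7 and 2.29% of H2-T23. H2-K1 shares 0.154% of those of H2-Q4. The classical genes have far higher levels than these members, and the part of misassigned reads in these r values was not tested.

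H2-T23 was nearest to Nos2, the inducible nitric oxide synthase (r = 0.95), the immunoproteasome subunit Psmb8 (0.95) and H2-D1 (0.92), and without the 2 farthest libraries these were 0.86, 0.86 and 0.88. H2-T22 was nearest to Hnrnpm, Pycrl and Xaf1, at 0.86 each, and at 0.81, 0.78 and 0.79 without the 2 farthest libraries. H2-M3 was nearest to the complement gene C1s1, Xaf1 and the interferon-inducible GTPase gene Irgm2, at 0.86, 0.85 and 0.85. Without the 2 farthest libraries these were 0.53, 0.64 and 0.46. Cd1d1 stood apart, with an r of -0.38 to 0.06 to the 6 H2 genes. Its nearest genes were Cdkal1 (0.92), Yaf2 (0.87) and Tmem106c (0.86), and none of them is in the lists of class I genes used here. For Cd1d1 these were 0.78, 0.71 and 0.66 without the 2 farthest libraries. These genes were picked by r from all genes, and all points share the depth and scaling of their library.

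In the 8 TME libraries the pairs had a median r of 0.43 and a range of -0.64 to 0.80. The median was 0.16 without sedentary TME library 10. H2-Q6 and H2-T23 had the highest r, 0.80 (0.59 without 2 libraries), and Cd1d1 and H2-T23 the lowest, -0.64 (-0.71 without 2). The nearest genes there were other than in cancer cells. They were Rec114, Camp and Zranb1 for H2-Q4, Zdhhc6, Sdf2l1 and Umad1 for H2-Q6, and Rwdd1, Tor2a and Ssbp3 for H2-Q7. For H2-T22 they were Ift22, Ddost and Nosip, for H2-T23 Ganab, Ccndbp1 and Slc17a5, for H2-M3 Rap2b, Rsad2 and Ccdc134, and for Cd1d1 Dlc1, Saa1 and Lpin1. All 21 had an r of 0.94 to 0.99 over 8 libraries, and of 0.75 to 0.99 without the 2 farthest libraries. They were picked by r from all genes, so a list other than that of cancer cells does not show that the sorts differ.

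**Figure D5:**
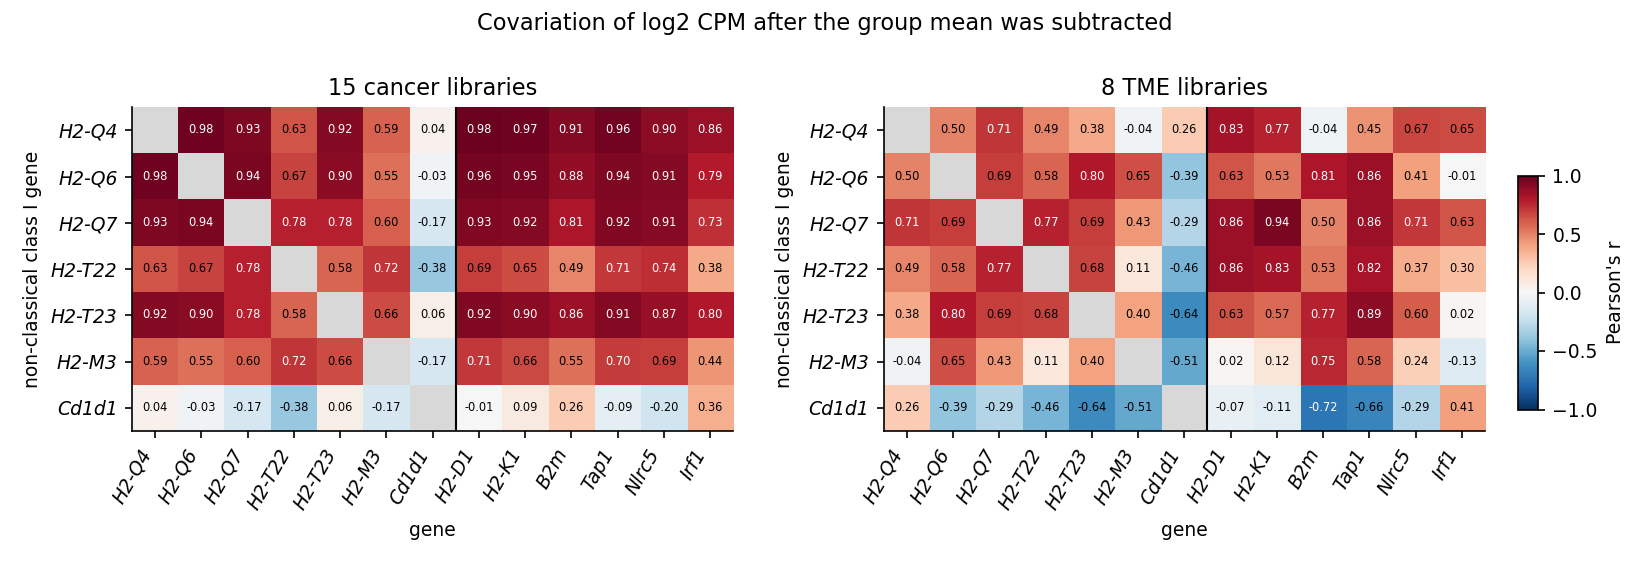
Pearson's r between each of the 7 genes (rows) and the 7 genes and 6 class I related genes (columns), on log2 CPM after subtraction of the group mean, over 15 cancer and 8 TME libraries. The H2-Q genes and H2-T23 share values of 0.78 to 0.98 in cancer libraries, while Cd1d1 lies between -0.38 and 0.06 with the H2 genes.

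The classical class I and peptide-loading genes gave the setting of these values. Of 14 listed and tested, 0 were called for exercise in either sort, 8 were lower and 2 higher in cancer than TME cells of exercised mice, and 5 were lower and 2 higher in sedentary mice. H2-D1 and H2-K1 were lower in exercised cancer cells by -0.89 ± 0.25 and -0.91 ± 0.23 log2 (edgeR adjusted p = 0.00616 and 0.00319). The immunoproteasome subunit Psmb8 differed by -1.28 ± 0.28 in exercised and -1.25 ± 0.27 in sedentary mice, the peptide transporter subunit Tap2 by -0.88 ± 0.21 and -0.81 ± 0.20. Tap1 differed by -0.96 ± 0.22 in exercised mice. Higher in cancer cells were the chaperone Canx, at 0.46 ± 0.11 in exercised and 0.53 ± 0.10 in sedentary mice, and the peptide-trimming enzyme Erap1, at 0.39 ± 0.11 and 0.58 ± 0.11. The shared light chain B2m had log2 differences of -0.35 ± 0.17 and 0.10 ± 0.17 in exercised and sedentary mice (edgeR adjusted p = 0.118 and 0.667).

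With exercise in TME cells, B2m had a log2 fold change of 0.53 ± 0.17 and Tap1 of 0.58 ± 0.15, each at an edgeR adjusted p of 0.586. B2m had 2389 to 3820 CPM in exercised and 1799 to 2340 CPM in sedentary TME libraries, without overlap. The list's median was 0.16, beside 0.00888 over all genes tested. In cancer cells its median was -0.01.

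Of 10 regulators of class I, 2 were lower and 1 higher in cancer cells, in exercised and in sedentary mice. The interferon-response factors Irf1 (-0.82 ± 0.21 and -0.74 ± 0.20 log2 in exercised and sedentary mice) and Irf2 (-0.63 ± 0.15 and -0.40 ± 0.14) were lower, and Creb1, a factor that binds class I promoters, was higher (0.42 ± 0.12 and 0.39 ± 0.12). Exercise called 0 of 10 in either sort. Nlrc5, the class I activator, had 168 to 196 CPM in exercised and 87.9 to 131 CPM in sedentary TME libraries, without overlap, at a log2 fold change of 0.77 ± 0.14 (edgeR adjusted p = 0.586). In cancer cells its fold change was 0.30 ± 0.17 (edgeR adjusted p = 0.487).

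Other non-classical class I and class I-like genes numbered 27 on the list, of which 13 were tested between the sorts. In exercised mice 9 were lower and 0 higher in cancer cells, and in sedentary mice 5 were lower and 1 higher. Fcgrt, the neonatal Fc receptor, differed by -1.98 ± 0.15 log2 in exercised and -1.35 ± 0.15 in sedentary mice. H2-M2 differed by -3.91 ± 0.49 and -4.48 ± 0.49 and H2-T24 by -3.29 ± 0.57 and -3.36 ± 0.57 in exercised and sedentary mice, and both averaged under 1 CPM in cancer cells. The iron regulator Hfe differed by -1.98 ± 0.33 and -1.32 ± 0.32, and Procr, the protein C receptor of endothelium, by -2.17 ± 0.38 and -2.58 ± 0.38. Mr1, which presents vitamin B metabolites to MAIT cells, was the 1 gene higher in sedentary cancer cells, at 0.52 ± 0.12. With exercise 0 were called in either sort, and 12 of 13 lay above 0 in TME cells, where 51.3% of all genes did. H2-Q8 and H2-Q9, which are on the list, have no row under these symbols in the count table or the annotation and could not be analysed. Whether reads of such copies were counted to H2-Q6 or H2-Q7 was not tested.

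Of 13 listed receptors and genes of responding cells 5 were tested between the sorts, 4 of which were lower in cancer cells of exercised mice and 2 in those of sedentary mice. Pirb, an inhibitory class I receptor of myeloid cells, differed by -5.06 ± 0.46 in exercised and -4.09 ± 0.44 in sedentary mice, and the CD8 chain Cd8a by -3.15 ± 0.61 and -2.79 ± 0.64. Klrd1, the CD94 chain of the Qa-1 receptor, averaged 3.20 ± 2.49 CPM in exercised and 0.519 ± 0.817 CPM in sedentary TME libraries (SD, n = 4 each), and 2 of the sedentary ones held no count. Klrc1, its NKG2A partner, averaged 0.793 ± 0.815 CPM in exercised and 0.0730 ± 0.114 CPM in sedentary TME libraries and was not tested. Exercise called 0 of 5 listed genes tested in TME cells and 0 of 3 in cancer cells. NK cell markers summed to 4.64, 30.6, 20.6 and 5.85 CPM in exercised TME libraries 7, 8, 9 and 10. In sedentary TME libraries they summed to 4.30 to 7.59 CPM, and their part was not tested. The gamma-delta chain Trdc and the NKT cell factor Zbtb16 were at no more than 0.426 CPM in any library.

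Of the 9 genes that load lipids on CD1d, 4 were lower and 2 higher in cancer cells of exercised mice, and 4 lower and 3 higher in sedentary mice. The lysosomal protease Ctss differed by -4.85 ± 0.40 in exercised and -4.09 ± 0.38 log2 in sedentary mice, and the lipid transfer activator Gm2a by -1.50 ± 0.21 and -0.87 ± 0.20. Psap, the precursor of saposins, differed by -0.74 ± 0.11 and -0.38 ± 0.11. The microsomal lipid transfer gene Mttp was higher in cancer cells, by 0.79 ± 0.12 and 0.65 ± 0.11, as was the protease Ctsl, by 0.28 ± 0.10 and 0.46 ± 0.10. Exercise called 0 of 9 in either sort. Leukocyte markers differ between the sorts by -4.35 log2 (median of 8) in exercised and -3.83 in sedentary mice, and their part in these differences was not tested.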

How the data were processed

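Trizol extraction and a KAPA mRNA kit gave the libraries, per the labels' protocols. Unnormalised counts per gene symbol were deposited by the authors in 1 table, whose 23 sample columns were all used. The submitters' processing notes name STAR, featureCounts and mm10. The sources used here do not give their versions, the annotation or the strand setting, so reads of antisense or near-identical genes may be misassigned.

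Tests were run with edgeR 4.0.16 under R 4.3.3, with filterByExpr, TMM scaling and the robust quasi-likelihood test, two-sided, with Benjamini-Hochberg adjustment over all genes tested and a threshold of 0.05. Exercise was fitted within the 15 cancer and the 8 TME libraries, and the difference of effects and both comparisons of the sorts on all 23. Adjusted p-values come from it except where DESeq2 or limma is named. Fold changes are log2 values ± SE. CPM values are means ± SD. The labels do not state separate animals, and the p-values then reflect only how these libraries vary, which may be technical. Coordinates were matched by symbol to GENCODE M21, and 46394 symbols (95.86%) matched.

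The members and gene lists were chosen with earlier results of these data known. Named genes are the 7 members, the 3 other genes with the highest r to each in either sort (mean log2 CPM of at least 1, prior count 2, no predicted genes), and up to 4 of each list with the smallest p in a comparison. H2-D1, H2-K1, B2m, Tap1, Nlrc5, Mr1, Klrc1, Trdc, Zbtb16, 3 cell type markers and the genes that overlap members were singled out beside these. Protein identity between members, which was planned, was not computed, and shared transcript stretches stand in its place. 1 item of the planned lists is not reported here.

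On simulated counts of these libraries, edgeR recovered 71% of 100 genes changed by 1 log2 unit in TME cells (15889 genes) and 100% of 100 in cancer cells (14867 genes). Of 100 changed by 2 log2 units it recovered 94% in TME cells and 100% in cancer cells. Whether these shares hold for the deposited counts was not tested. There, exercise called 0 of 16273 genes in TME cells, and H2-Q6 at 1.02 log2 had an edgeR adjusted p of 0.586. Alternatives were DESeq2 1.42.0, limma 3.58.1 voom with quality weights, RLE scaling, other filters, removal of mitochondrial genes, summed copies, the replicate number as a block, other sets of libraries and each library left out. The replicate numbers were taken to pair cancer and TME libraries in exercised mice, where deviations of the 3 same-numbered pairs correlated at 0.19, 0.29 and 0.46. The labels do not state this pairing, and the main tests did not use it. Fits with the block are given beside them as an alternative. In sedentary mice 1 of 4 pairs was at -0.27, and the numbers were not taken as pairs there or between treatments.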

Additional observations from a re-analysis of the deposited data

Results flagged for a closer look

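H2-T23 in exercised TME library 8, at 61.1 CPM, lay far from the other 3 libraries of its group, with a gap of 0.852 of the group's range. It was the only one flagged of 28 sets of 1 gene in 1 group, and about 1 in 20 such sets is flagged by chance. That library also held 1634 CPM of pan-leukocyte markers. Without libraries 8 and 9 the exercise effect on H2-T23 in TME cells was 0.39 ± 0.17 log2, against 0.51 ± 0.15 with all libraries.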

How the results depend on the processing

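Of 813 alternative values of the 7 genes' log2 fold changes, 771 kept their direction and their side of the threshold. For exercise in TME cells DESeq2 called 2 of the 7 genes. For cancer against TME cells, limma voom called 4 in sedentary mice, and fits without 1 library called 2 to 6 in sedentary and 4 to 5 in exercised mice. Those fits without 1 library called 5785 to 7503 of all genes in sedentary and 5215 to 6635 in exercised mice. Over all genes, exercise in cancer cells called 146 with DESeq2, 197 with limma voom, 28 without a filter, 1 with all 23 libraries and 0 to 43 without 1 library (43 without sedentary library 4). In TME cells it called 40 with DESeq2 and 6 without a filter. The difference of effects called 40 with limma voom and 0 to 52 without 1 library (52 without exercised TME library 7). Sedentary cancer against TME cells called 4323 genes without TME libraries 4 and 6.

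Same-numbered cancer and TME libraries correlated at 0.19 to 0.46 in exercised mice, each best with its own number, and at -0.27 to 0.24 in sedentary mice. Between treatments the range was -0.14 to 0.43, with 2 of 7 at their own best. With the replicate block, 4 of the 7 genes were called in sedentary mice, H2-Q4 (-0.962, edgeR adjusted p = 0.000544) and H2-Q7 (-0.827, edgeR adjusted p = 0.00172) beside the 2 without it. The count over all genes in that fit is not given here. In exercised mice the block called 4 of the 7, where H2-Q4 was lost (edgeR adjusted p = 0.0808), with 3517 of all genes. For the difference of effects it called 14 of all genes. For exercise within a sort, the block set exercised beside sedentary libraries of the same number, which were not taken as pairs. The treatments share only replicates 2, 4, 5, 7 and 10 of the cancer sort, and replicates 9 and 10 of the TME sort. These fits therefore do not show how firm the exercise effects are. The log2 effects of H2-Q4 (-0.0143), H2-Q6 (-0.00652), H2-Q7 (-0.0713) and Cd1d1 (0.0723) in the cancer sort changed sign in them. That of H2-T22 in the TME sort (-0.246) did so too. With the block the differences of effects of H2-Q4 (0.469) and H2-Q6 (0.107) also changed sign.

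Small exercise effects in cancer cells changed sign elsewhere. With limma voom H2-T22 was 0.0469 and H2-M3 0.0395, and with all 23 libraries H2-T22 was 0.000846. Without 1 library the effects ranged from -0.0926 to 0.0609 for H2-T22, -0.242 to 0.0184 for H2-T23, -0.174 to 0.0546 for H2-M3 and -0.133 to 0.0281 for Cd1d1, and the H2-Q4 difference of effects from -0.321 to 0.0783. Without TMM, Cd1d1 in sedentary TME cells averaged 12.6 CPM. The median r was 0.162 in TME libraries without sedentary TME library 10, and 0.437 in cancer libraries without sedentary cancer library 10. The causes were not tested. The fewest counts of a gene in a library were 91, for H2-T22 in sedentary TME library 4, which limits its precision.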
